A study of Mus musculus with 2 samples.

Results

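The miR-181 family of the mouse comprises 6 microRNA (miRNA) genes at 3 loci: Mir181a-1 and Mir181b-1 on chromosome 1, Mir181a-2 and Mir181b-2 on chromosome 2, and Mir181c and Mir181d on chromosome 8. They were taken by name from the 2202 miRNA genes counted, and all 6 were matched. The samples were 2 small RNA libraries, labelled biological replicates 2 and 1, from the hearts of male mice aged 18 to 20 months. The mice were B6CASTF1/J, a hybrid of the strains C57BL/6J and CAST/EiJ, with no treatment or engineered allele named in the labels. Both libraries form 1 group under a single donor record. The differences between them may thus be technical, and there were no conditions to compare.

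MiRNAs are short RNAs cut from hairpin precursors, and each hairpin can give a mature miRNA from its 5′ arm (5p) and another from its 3′ arm (3p). A mature miRNA finds messenger RNAs mainly through its seed, bases 2 to 8, and lowers their translation or stability. In T cells the family is known for tuning receptor signalling. In heart muscle, work in rat and mouse placed miR-181c inside mitochondria, where it lowers the product of the mitochondrial gene mt-Co1, a subunit of respiratory complex IV, while miR-181a and miR-181b act on messages in the cytosol.

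The mature sequences are shown because they decide which reads a gene can be given. RefSeq (GRCm38.p6) held mature sequences for all 6 genes, 12 arms by gene and 10 distinct miRNAs of 21 to 24 bases. The seed is in capitals, and the 5p forms come first.
miR-181a-5p: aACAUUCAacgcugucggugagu
miR-181b-5p: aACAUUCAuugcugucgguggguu
miR-181c-5p: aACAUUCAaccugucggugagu
miR-181d-5p: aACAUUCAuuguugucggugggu
miR-181a-1-3p: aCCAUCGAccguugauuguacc
miR-181a-2-3p: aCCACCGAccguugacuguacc
miR-181b-1-3p: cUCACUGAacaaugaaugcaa
miR-181b-2-3p: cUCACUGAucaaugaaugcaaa
miR-181c-3p: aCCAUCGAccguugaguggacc
miR-181d-3p: cCCACCGGgggaugaauguca

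The 4 distinct 5p forms shared 1 seed, and no other mature miRNA in the RefSeq table had it. Counted from the 5′ end over the bases both have, miR-181d-5p differed from miR-181b-5p by C12U alone. MiR-181b-5p differed from miR-181a-5p by A9U, C10U and A21G. MiR-181c-5p aligned with miR-181a-5p at 22 identical positions with 1 gap and no mismatch. The 3p forms had 4 seeds, of which miR-181a-1-3p shared 1 with miR-181c-3p, and the copies of miR-181b shared another. Between the copies of miR-181a the 3p forms differed by U5C, which lies in the seed, and by U16C, and miR-181b-2-3p differed from miR-181b-1-3p by A9U.

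MiR-181a-5p is the same molecule from both of its loci, and so is miR-181b-5p, whereas all 6 3p forms and the 5p forms of miR-181c and miR-181d each occurred in 1 annotated hairpin of 2202. The hairpins of the copies are shown to mark how far a read must reach to tell 1 locus from the other. Capitals mark the longest stretch shared by the pair.
Mir181a-1: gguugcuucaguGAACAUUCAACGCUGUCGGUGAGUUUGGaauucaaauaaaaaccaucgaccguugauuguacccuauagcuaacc
Mir181a-2: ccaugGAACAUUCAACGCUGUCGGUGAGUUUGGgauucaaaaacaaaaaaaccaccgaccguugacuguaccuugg
Mir181b-1: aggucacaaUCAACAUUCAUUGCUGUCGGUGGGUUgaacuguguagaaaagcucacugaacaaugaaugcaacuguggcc
Mir181b-2: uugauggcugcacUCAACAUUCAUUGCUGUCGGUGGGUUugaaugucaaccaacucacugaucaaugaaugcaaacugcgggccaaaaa

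The copies of miR-181a shared 28 bases, 1 before the mature 5p sequence and 4 after it, so a read that starts at its first base must be 28 bases long to reach a difference. For miR-181b the shared stretch was 26 bases, 2 before the mature sequence and none after it, and a read of 25 bases reaches a difference. The labels give the size range of the libraries as under 30. Of the stretches of 22 bases in each hairpin, 7 of 66 at Mir181a-1, 7 of 55 at Mir181a-2, 5 of 59 at Mir181b-1 and 5 of 68 at Mir181b-2 were found in the other copy and in no further annotated hairpin. At Mir181d none of 51 was. Reads with more than 1 mapping place entered no gene's count. The count at a miR-181a or miR-181b gene therefore leaves out the mature 5p reads both copies make, and the arm a counted read came from is not recorded.

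**Figure D1:**
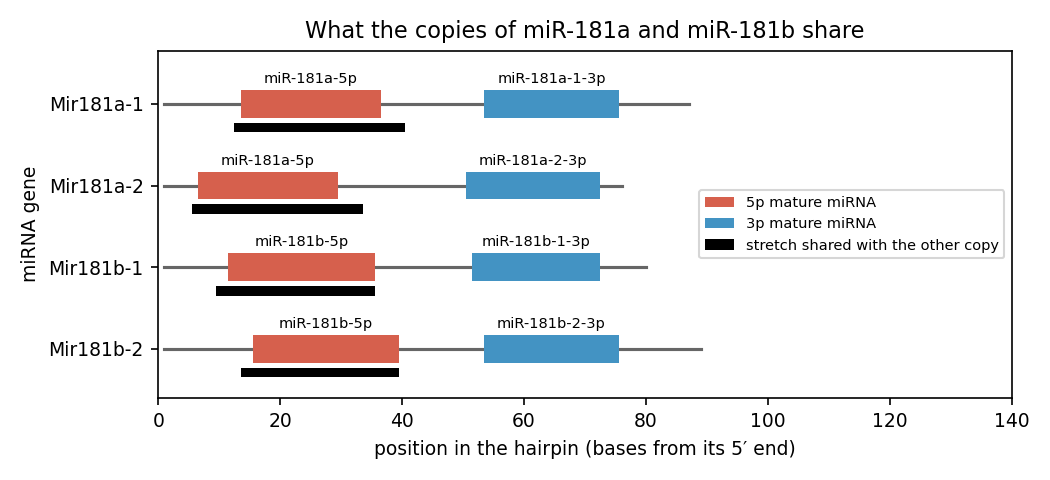
Positions of the 5p and 3p mature miRNAs along the hairpins of the 4 genes of miR-181a and miR-181b, in bases from the 5′ end of each hairpin; black bars mark the longest stretch shared with the other copy. The shared stretch covers the whole 5p miRNA in each hairpin, 28 bases for miR-181a and 26 for miR-181b, and none of the 3p miRNA.

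In position, the 6 hairpins form 3 pairs with no further miRNA gene within 10000 bases. Coordinates are those of GRCm38 (mm10). Mir181a-1 (ENSMUSG00000065565.1, chr1:137966455-137966541, plus strand) and Mir181b-1 (ENSMUSG00000065458.1, chr1:137966639-137966718, plus strand) are 97 bases apart. Both lie in an intron of the noncoding gene Gm4258 on the same strand, Mir181b-1 lies inside an exon of the noncoding gene A430106G13Rik, and Mir181a-1 overlaps the edge of such an exon. Mir181a-2 (ENSMUSG00000065423.1, chr2:38852735-38852810, plus strand) and Mir181b-2 (ENSMUSG00000065578.1, chr2:38853830-38853918, plus strand) are 1019 bases apart, in an intron of Nr6a1, an orphan nuclear receptor gene on the opposite strand. Mir181b-2 also lies within an exon of Gm44144, again on the opposite strand. Mir181d (ENSMUSG00000076338.1, chr8:84178716-84178787, minus strand) and Mir181c (ENSMUSG00000065483.2, chr8:84178873-84178961, minus strand) are 85 bases apart in an intron of Nanos3, a germ cell RNA-binding protein gene on the same strand. No read was counted on the other strand at any of the 6 genes in either library.

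The libraries held 5284446 reads in miRNA genes in replicate 2 and 3037063 in replicate 1. Reads with several mapping places numbered 6355706 in replicate 2 and 3857758 in replicate 1, which was 1.20 and 1.27 times the reads in miRNA genes. Levels are reads per 1000000 reads in miRNA genes (CPM), not divided by length, because a read of this size covers a whole mature miRNA; dividing by hairpin length changed no order given here between 2 members. A count of 0 would allow up to 0.568 CPM in replicate 2 and 0.988 CPM in replicate 1, the level of 3 reads. Of the 7 heart muscle markers 6 had at least 10 reads in both libraries. Mir208a, the miRNA of the alpha myosin gene, was at 9154 and 5184 CPM in replicates 2 and 1, and Mir499 at 5487 and 5559 CPM. The rest were far lower by mean counted level, from Mir208b at 82.9 CPM to Mir133a-1 at 4.25 CPM (31 and 8 reads). Mir1a-1 and Mir1a-2 among them make 1 mature miRNA from several loci. Reads with more than 1 mapping place are in no count, so these levels do not show that the miRNAs themselves were scarce. Of the 7 brain markers 4 had no read, the 3 Mir124a genes and Mir9-2, while Mir137 had 396 reads (74.9 CPM) in replicate 2 and 109 (35.9 CPM) in replicate 1, and Mir9-1 and Mir9-3 had at most 2 reads per library.

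All 6 genes had at least 10 reads in both libraries, as did 321 of the 2202 miRNA genes (14.6%). Together the family took 0.170% of the counted miRNA reads in replicate 2 and 0.143% in replicate 1. These shares rest on 9009 reads (Wilson 95% limits 0.167 and 0.174) and 4353 reads (0.139 and 0.148), with a mean of 0.157% ± 0.0192 (SD, n = 2). Intervals cover only the counting error of the reads. The labels name no molecular identifiers, so reads copied from the same molecule could not be told apart. The true counting error may thus be larger than the intervals and binomial tests allow. The 6 levels had a median of 236 CPM, against 67.4 CPM over the 321 genes, and spanned 4.51 to 607 CPM.

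Mir181d, made from the downstream hairpin of the chromosome 8 locus, had the highest level of the family. Its 3508 reads in replicate 2 and 1668 in replicate 1 gave 664 and 549 CPM, a mean of 607 ± 81.0 CPM (SD, n = 2). It ranked 82 among all miRNA genes by mean level, and 82 and 81 in replicates 2 and 1 alone.

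Mir181c, the member known from heart mitochondria, had 1898 reads in replicate 2 and 1318 in replicate 1. These are 359 and 434 CPM, a mean of 397 ± 52.9 CPM (SD, n = 2), and it ranked 91 by mean level. Replicate 2 was the higher library for Mir181d and replicate 1 for Mir181c, although the hairpins are neighbours.

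Mir181b-2 had 2618 reads in replicate 2 and 791 in replicate 1, or 495 and 260 CPM. Its mean of 378 ± 166 CPM (SD, n = 2) had the widest relative spread of the family, 44.0% of the mean, while the SDs of the other members were 7.07% to 15.5% of theirs.

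The copies of miR-181a lay near each other. Mir181a-2 had 441 reads (83.5 CPM) in replicate 2 and 316 (104 CPM) in replicate 1, a mean of 93.8 ± 14.6 CPM (SD, n = 2). Mir181a-1 had 519 reads (98.2 CPM) in replicate 2 and 247 (81.3 CPM) in replicate 1, a mean of 89.8 ± 11.9 CPM (SD, n = 2).

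Mir181b-1 was far below the rest, with 25 reads (4.73 CPM) in replicate 2 and 13 (4.28 CPM) in replicate 1. Its mean of 4.51 ± 0.318 CPM (SD, n = 2) lay above the level of 3 reads in each library and ranked 317 among all miRNA genes.

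By mean level the order was Mir181d, Mir181c, Mir181b-2, Mir181a-2, Mir181a-1 and Mir181b-1. The gap between Mir181c and Mir181b-2 (mean log2 ratio 0.14 ± 0.85, SD over 2 libraries) and that between Mir181a-2 and Mir181a-1 (0.06 ± 0.42) lay within the spread between libraries, and in both cases replicate 2 had the opposite order. The other 3 gaps between neighbours had means beyond their SD and the same order in both libraries.

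**Figure D2:**
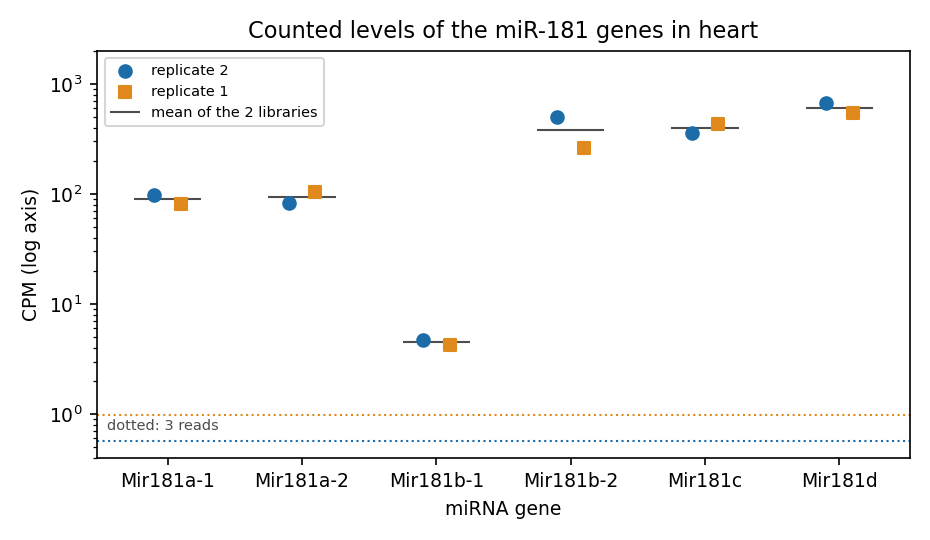
Counted level of each miR-181 gene in replicate 2 (blue circles) and replicate 1 (orange squares) in CPM on a log axis. Black lines are the means and dotted lines the level of 3 reads in each library. Reads of the 5p forms common to both copies of miR-181a or of miR-181b are in no count. Mir181b-2, Mir181c and Mir181d sit between 260 and 664 CPM, the miR-181a genes near 90 CPM and Mir181b-1 below 5 CPM.

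Set against the single-locus genes, the 4 genes of miR-181a and miR-181b together had fewer counted reads than Mir181c and Mir181d. They had 3603 reads against 5406 in replicate 2, a ratio of 0.666 (95% exact binomial interval 0.639 to 0.695), and 1367 against 2986 in replicate 1, a ratio of 0.458 (0.429 to 0.488). On the log2 scale these ratios averaged -0.86 ± 0.38 (SD, n = 2). The chromosome 8 locus held 60.0% of the family's reads in replicate 2 and 68.6% in replicate 1, with Wilson 95% limits of 59.0 and 61.0, and of 67.2 and 70.0. This is a comparison of counted reads, since 5p reads common to both copies of miR-181a, or of miR-181b, are in no count while those of Mir181c and Mir181d are unique among annotated hairpins.

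Across the loci, the chromosome 2 pair exceeded the chromosome 1 pair 5.62-fold in replicate 2 (95% interval 5.13 to 6.17) and 4.26-fold in replicate 1 (3.72 to 4.89). These are ratios of counted reads, which leave out the 5p reads common to both copies, so they are not ratios of what the loci make. In replicate 1 most of that difference in counted reads came from miR-181b. In replicate 2 all of it did, since Mir181a-2 had fewer reads than Mir181a-1 there (441 against 519). Mir181b-2 exceeded Mir181b-1 105-fold in replicate 2 (70.8 to 162) and 60.8-fold in replicate 1 (35.4 to 115), a mean log2 ratio of 6.32 ± 0.55 (SD, n = 2). For miR-181a the ratio of Mir181a-2 to Mir181a-1 was 0.850 in replicate 2 (0.747 to 0.967) and 1.28 in replicate 1 (1.08 to 1.52), so the libraries gave opposite orders, each beyond counting error.

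Neighbours at a locus differed in counted level as well. On chromosome 1 Mir181b-1 was at 0.0482 of Mir181a-1 in replicate 2 (95% interval 0.0309 to 0.0719) and 0.0526 in replicate 1 (0.0276 to 0.0917). On chromosome 2 the order was the other way, with Mir181b-2 at 5.94 times Mir181a-2 in replicate 2 (5.36 to 6.58) and 2.50 times in replicate 1 (2.19 to 2.86). On chromosome 8 Mir181d exceeded Mir181c 1.85-fold in replicate 2 (1.75 to 1.96) and 1.27-fold in replicate 1 (1.18 to 1.36). An exact sign-flip test over 2 libraries cannot go below p = 0.5, so none was made.

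**Figure D3:**
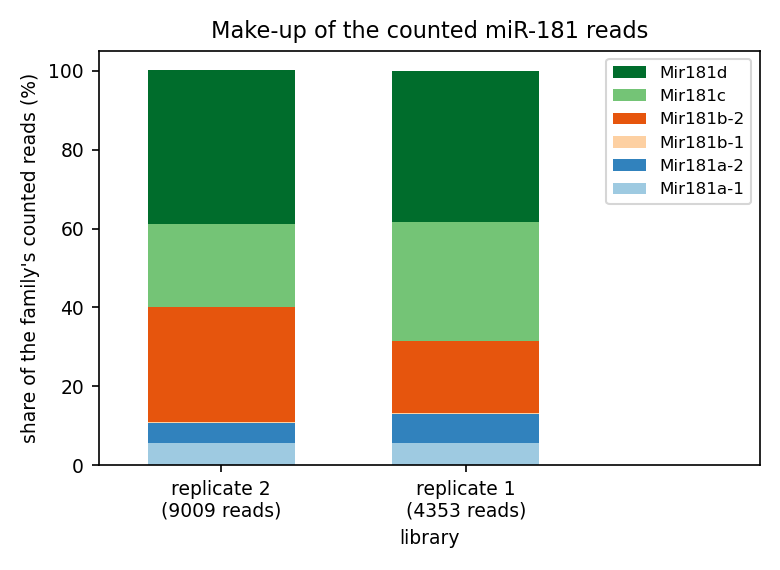
Share of the family's counted reads held by each gene, in percent, as stacked bars for replicate 2 (9009 reads) and replicate 1 (4353 reads). Mir181d holds 38.9% and 38.3% in replicates 2 and 1, while Mir181b-2 holds 29.1% and 18.2% and Mir181c 21.1% and 30.3%.

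The unequal counts of the copies can be set beside other miRNAs made from several loci. Among the 1018 genes matched to a RefSeq mature sequence, 92 make the 50 mature sequences that come from more than 1 gene. Of those genes 39 (42.4%) had at least 10 reads in both libraries, against 248 of the 926 genes (26.8%) whose arms are all their own. Of the 39, 35 were among the 57 genes that also have an arm of their own (61.4% of the 57). Genes with shared arms only thus rarely reached 10 reads. Both genes had at least 10 reads per library in 17 of the 60 listed pairs with a shared mature miRNA. Of the 17 pairs, 11 had the same order in both libraries, 5 the opposite and 1 equal reads in replicate 1. The median of their mean log2 ratios, higher copy over lower, was 0.92. These too are ratios of counted reads, without the reads that map to both copies. The list of pairs is incomplete. Mir1a-1 (20 and 21 reads in replicates 2 and 1) and Mir1a-2 (141 and 84) had enough reads but are not in it. Pairs with a copy under 10 reads in a library are left out, so a ranking covers the 17 only. Among the 17, Mir181b-2 over Mir181b-1 had the highest mean log2 ratio, 6.32. Mirlet7f-2 over Mirlet7f-1 was next, with ratios of 26.7 and 26.8 in replicates 2 and 1. Mir181a-2 over Mir181a-1 had the lowest, 0.06, beside Mir194-1 over Mir194-2 at 0.10 ± 0.44 (SD, n = 2), which also changed order between the libraries.

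**Figure D4:**
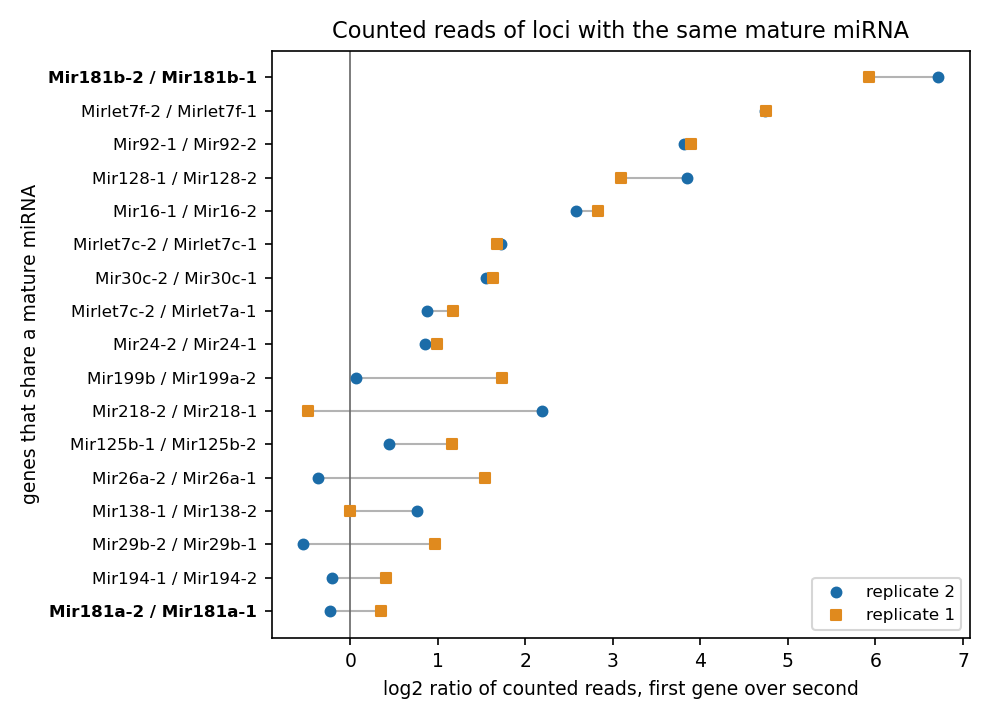
Log2 ratio of counted reads between genes that share a mature miRNA (blue circles replicate 2, orange squares replicate 1). Shown are the 17 of 60 listed pairs in which each gene had 10 or more reads per library, sorted by mean ratio. The miR-181 pairs are in bold. The pair of miR-181b lies at the top, at 105-fold and 60.8-fold, and the pair of miR-181a at the bottom, on both sides of 0.

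Between the libraries, 5 of the 6 genes differed by more than counting error, 3 higher in replicate 2 and 2 higher in replicate 1. Over the 424 genes tested, those with 10 or more reads summed over the libraries, the share that differed was 52.8%, 30.9% higher in replicate 2 and 21.9% higher in replicate 1 (exact two-sided binomial test given the library totals, Benjamini-Hochberg adjustment over all 424, threshold 0.05). This test compares 2 libraries and says nothing of conditions. The median log2 ratio, replicate 2 over replicate 1, was 0.21 for the 6 genes and 0.07 for all tested genes. In 5 of the 6 the size of the ratio was below 0.50, the median over all tested genes. That median was not matched for level. It includes genes with as few as 10 summed reads, whose ratios carry a larger counting error.

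Mir181b-2 differed most, 1.90-fold higher in replicate 2 (log2 ratio 0.93, 95% interval 0.81 to 1.04; adjusted p = 1.49e-61, exact binomial test). Mir181d was 1.21-fold higher in replicate 2 (log2 ratio 0.27, 0.19 to 0.36; adjusted p = 5.52e-10, exact binomial test). Mir181a-1 was higher there by the same log2 ratio of 0.27 (0.05 to 0.50; adjusted p = 0.0284, exact binomial test), a call that TMM scaling ended (adjusted p = 0.0506, exact binomial test), as did testing genes without a minimum count (adjusted p = 0.146, exact binomial test).

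Mir181c was lower in replicate 2, with a log2 ratio of -0.27 (-0.38 to -0.17; adjusted p = 5.45e-07, exact binomial test), and so was Mir181a-2 at -0.32 (-0.53 to -0.11; adjusted p = 0.00716, exact binomial test). Mir181b-1 at 0.14 did not pass, and its interval at 25 and 13 reads ran from -0.88 to 1.23. The exact test of edgeR, with a common dispersion estimated on the 321 genes (a coefficient of variation of 40.5%), called 12 of the 424 genes (2.83%). It called 0 of the 6 members, whose lowest adjusted p was 1.00, and 0 of them had an unadjusted p under 0.05. The dispersion came from the same libraries that the test compares, so a difference of usual size is already part of it. The lack of calls therefore does not show that the libraries were alike.

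**Figure D5:**
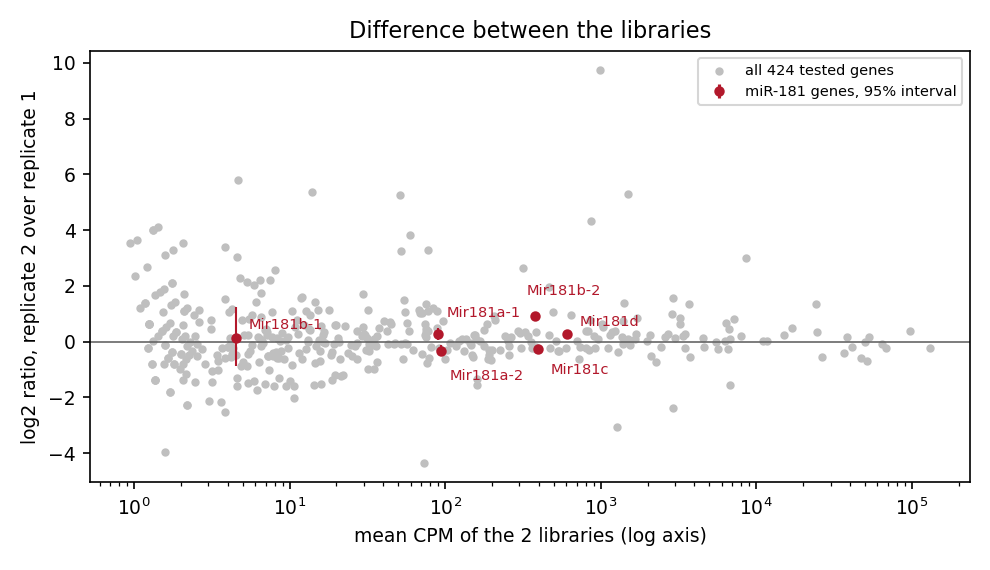
Log2 ratio of replicate 2 over replicate 1 against mean level for all 424 tested genes (grey) and the miR-181 genes (red, with 95% intervals for counting error). The miR-181 genes lie between -0.32 and 0.93, inside the cloud of genes of like level.

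As sums, the libraries held the miR-181a genes and the chromosome 8 locus at like levels and the miR-181b genes at unlike ones. The miR-181a genes together had 182 and 185 CPM in replicates 2 and 1, and their log2 ratio was -0.03 (95% interval -0.18 to 0.12). Mir181c and Mir181d together had 1023 and 983 CPM in the same order, with a log2 ratio of 0.06 (-0.01 to 0.12). The miR-181b genes had 500 CPM in replicate 2 against 265 CPM in replicate 1, with a log2 ratio of 0.92 (0.80 to 1.03).

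Markers of other cells differed between the same libraries by the exact binomial test, as did 52.8% of all tested genes (30.9% with replicate 2 the higher library, 21.9% with replicate 1). The 7 epithelial markers summed to 3874 CPM in replicate 2 and 298 in replicate 1, with 4 higher in replicate 2 and 2 higher in replicate 1, led by Mir205 with 10372 and 7 reads. Of the 4 endothelial markers, 3 were tested and all were higher in replicate 2, Mir221 at 4352 and 1469 CPM among them. The 4 endothelial markers summed to 114723 CPM in replicate 2 and 86801 in replicate 1, nearly all of it Mir126a. Leukocyte markers, of interest because developing T cells are known to be rich in miR-181a, summed to 9088 CPM in replicate 2 and 8092 in replicate 1. Of these, Mir142b had no read, and of the 5 tested 4 were higher in replicate 2 and Mir142 was higher in replicate 1. Erythroid markers were lower in replicate 2, at 2542 CPM in replicate 2 and 8201 in replicate 1 over 3 genes, with Mir144 and Mir451a lower and Mir486 higher. The 4 fibroblast markers summed to 3823 CPM in replicate 2 and 1952 in replicate 1, and the 2 smooth muscle markers to 40641 and 45692. The 7 heart muscle markers summed to 14802 and 10834, nearly all of it Mir208a and Mir499, and the 7 brain markers to 75.5 and 36.2. All these sums leave out reads with more than 1 mapping place. Among the tested genes of these lists 1 fibroblast marker, 2 heart muscle markers and the brain marker Mir137 were higher in replicate 2, and 1 fibroblast and 1 smooth muscle marker lower. The other 5 heart muscle markers did not pass. The part of any of these cells in the miR-181 counts was not tested, and in whole tissue fewer cells of a type and less RNA per cell cannot be told apart.

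Other miRNAs tied to mitochondria or energy use in muscle lay on both sides of Mir181c in counted reads, some far above it and some below. Mir378a, made in an intron of the coactivator gene Ppargc1b, had a mean of 130358 CPM, Mirlet7b 68411 CPM and Mir499, from a myosin gene intron, 5523 CPM. For Mir21a the libraries lay far apart, at 15190 CPM in replicate 2 against 1899 in replicate 1. Mir210, a repressor of an iron-sulfur cluster assembly factor, had 267 CPM, below Mir181c at 397 CPM. The miR-1 genes Mir1a-2 and Mir1a-1 had 27.2 and 5.35 CPM, and they too make 1 mature miRNA from several loci. Between the libraries the exact binomial test called 4 of the 7, Mir21a and Mir210 higher in replicate 2 and Mir378a and Mirlet7b higher in replicate 1, against 52.8% of all tested genes. The median log2 ratio of the 7 was -0.05.

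By distance between log2 CPM values over the 2 libraries, the genes nearest to Mir181c among the 321 were Mir142 (350 and 420 CPM in replicates 2 and 1, distance 0.06) and Mir574 (357 and 410 CPM, 0.08). Mir154 and Mir542 were nearest to Mir181a-2, at 0.08 and 0.19, and Mir547 and Mir598 to Mir181a-1, at 0.17 and 0.33. Mir181b-1 had the same reads as Mir1941 in both libraries, 25 and 13, and Mir1949 was the next at 0.06. Mir25 and Mir20a lay nearest to Mir181d, at 0.36 and 0.37. Mir181b-2 had no close partner, with Mir30c-1 and Mir874 at 0.44 and 0.46.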

How the data were processed

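The authors deposited a table of raw counts for each library, with 3 count columns (either strand and each strand alone) and 4 summary lines above the genes. The build was mm10 and the annotation GENCODE M21, per the labels and the text deposited beside the tables. Aligner and counter: not given in the sources used here. Of the single-strand columns, that with the higher total in each library was taken as sense. All gene IDs matched GENCODE. Summary lines stayed out of totals and tests.

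Counts were scaled to CPM. Differences between libraries were tested with exact binomial tests (SciPy 1.17.1) on the whole table. With 1 library set against the other, the quasi-likelihood test of edgeR has no residual degrees of freedom; the common dispersion was estimated with both libraries as 1 group. Alternatives were TMM and the exact test of edgeR 4.0.16 and size factors of DESeq2 1.42.0. A count of 0 would be replaced by 0.5 reads. The tests were checked on simulated data.

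Stretches and mature sequences were searched in annotated miRNA hairpins only, on both strands. Hairpin stretches were taken for the 5 genes with a RefSeq hairpin; Mir181c is named only. Genes named beside the family were the 2 nearest in level to each member, pairs of loci with a shared mature miRNA, a mitochondria list and cell type markers; Mir146a was matched as Mir146. The members and lists were chosen with earlier results of these data known. A CAST/EiJ allele unlike the reference could lose reads, which the counts cannot show.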

Additional observations from a re-analysis of the deposited data

Results flagged for a closer look

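Reads that mapped to several places are in no gene's count: 6355706 in replicate 2 and 3857758 in replicate 1. The deposited counts do not say which miRNAs they came from, so how many were miR-181a-5p or miR-181b-5p is not known.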

How the results depend on the processing

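The number of miR-181 genes that differed between the libraries was 5, and 4 or 5 under another scaling, without a minimum count, in the column for either strand or with 1 read in place of a count of 0. In edgeR's exact test with a common dispersion it was 0, and that of all tested genes 12 in place of 224. The family's share was 0.212% in the column for either strand, where the members' reads were the same and the total smaller. Per 1000000 of all reads of a library, unmapped reads included, every member's level was lower, Mir181d at 178 in place of 607 CPM, Mir181c at 118 in place of 397 and Mir181a-1 at 26.3 in place of 89.8. Leaving out 1 library gave shares of 0.143% to 0.170%. The log2 ratio of Mir181a-2 over Mir181a-1 was -0.23 without replicate 1 and 0.36 without replicate 2, and that of Mir181b-2 over Mir181c 0.46 and -0.74; both turned direction, and the cause was not tested. The other pair ratios kept their direction in each library. Per base of hairpin, chosen after seeing the data, no pair turned, and Mir181b-1 over Mir181a-1 was -4.19 in place of -4.31. TMM scaling moved all log2 ratios by -0.03. No paired analysis was possible because there is 1 group. Shared stretches were searched in annotated hairpins; a search of the genome was not run. Depth limits Mir181b-1 most, at 25 and 13 reads.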
